A study of Cricetulus griseus with 16 samples.

Results

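The regulators of mitochondrial biogenesis in Chinese hamster ovary (CHO) cells were followed through mild and moderate heat. They were selected by name, as the rows of the gene counts that bear the symbols of 10 listed genes, among the 20824 genes counted. A row was found for 9 of the 10, since Lrpprc (the leucine-rich protein that stabilises mitochondrial mRNAs) had no row by that symbol and was not analysed here. Of these 9, Ppargc1a had no count in any library, so that 8 were measured, and all 8 passed the filter on low counts. The list was chosen partly because Pprc1 was already known to be lower at 42.5 °C in these same libraries. For that reason every value of these genes at 42.5 °C is a description and carries no p-value. Counts of these genes that met a limit at 42.5 °C are likewise a description and are not used as a test. Tests of these genes are given only for the comparisons among the 37 °C and 40 °C groups.

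The cells were the CHO line ATCC CCL-61, seeded 24 h before treatment, and the heated cells are set against cells kept at 37 °C with no treatment. The fever-like temperature of 40 °C was held for 1 h or for 6 h, and the moderate heat of 42.5 °C lasted 1 h. A single 37 °C group serves all comparisons, and no hours are given for it. No separate control for 6 h is listed, so 6 h of heat and longer culture cannot be told apart. Each group has 4 libraries lettered A to D in the labels, which the study describes as biological repeats, all of this single line. The p-values therefore measure the spread between these repeats only. Total RNA was isolated, libraries were made from it with a TruSeq RNA kit, and these were sequenced as paired reads. The deposited values are read counts per gene without normalization.

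New mitochondria need genes from 2 genomes, so that nuclear transcription and transcription of the mitochondrial DNA (mtDNA) have to be coupled. The coactivators PGC-1α (Ppargc1a), PGC-1β (Ppargc1b) and PRC (Pprc1) bind no DNA themselves and act through DNA-binding factors, among them nuclear respiratory factor 1 (Nrf1) and GABP, whose DNA-binding subunit is Gabpa. These factors act on nuclear genes of respiration and on the genes of the mitochondrial transcription machinery, which consists of the RNA polymerase Polrmt, the DNA-packaging and promoter-binding factor Tfam and the initiation factor Tfb2m. Tfb1m is related to Tfb2m and methylates mitochondrial ribosomal RNA. PRC is known as a growth-regulated member of the family in cultured cells, whereas PGC-1α is known for tissues such as brown fat, muscle and liver.

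Libraries held between 10504192 and 14668365 counts, and expression is given as CPM, the counts scaled to a common library size, with the scaling factors of the trimmed mean of M-values (TMM). Replicate D of the 37 °C group stood apart. Over all genes its log2 values deviated from the mean of the other controls with an SD of 0.45, whereas the SD was 0.147 to 0.161 for replicates A, B and C. The study left out 1 control, and the control counts it printed match replicates A, B and C, so the 37 °C group below is these 3 libraries and replicate D is named separately. The heat shock genes Hsph1 and Dnajb1, taken to check the labels, were higher in every heated group than in the controls. Hsph1, a chaperone of the HSP110 family, had a mean of 324 ± 4.04 CPM (SD, n = 3) in the controls. It was at 683 ± 216 CPM after 1 h at 40 °C, 752 ± 216 CPM after 6 h and 2530 ± 951 CPM at 42.5 °C (n = 4 each). Dnajb1 had means of 28.4, 87.5, 44.6 and 394 CPM in the same order, so it was lower after 6 h than after 1 h at 40 °C. The mesenchymal markers Vim, Lgals1 and S100a6 summed to between 3300 and 5210 CPM in the 16 libraries. The 6 markers of other cell types that were found summed to between 1.97 and 7.28 CPM, nearly all from the granulosa cell gene Amh, the granulosa cell genes Foxl2 and Fshr were at 0 throughout, and Ptprc, Epcam and Pecam1 reached at most 0.326 CPM (Pecam1) in any library. These 6 include no macrophage marker, as Cd68 had no row by that symbol.

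Of the coactivators, Pprc1 (ENSCGRG00001011726) overlapped between 37 °C and both groups at 40 °C, and its mean was 51.3% of the control mean after 1 h at 42.5 °C. At 37 °C, replicates A, B and C held 214, 216 and 226 CPM. After 1 h at 40 °C the 4 libraries were at 221, 236, 221 and 217 CPM, and after 6 h at 214, 224, 232 and 200 CPM. At 42.5 °C they were at 113, 117, 103 and 115 CPM. Every 42.5 °C library thus lay below every other library of the series, including the separate 37 °C replicate D at 176 CPM. The group means were 219 ± 6.72, 224 ± 8.65, 217 ± 13.7 and 112 ± 5.97 CPM in the order of the groups above.

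The first 3 of these means did not differ beyond their spread. By the quasi-likelihood test of edgeR, which gives all adjusted p-values here after Benjamini-Hochberg adjustment over all genes tested, Pprc1 changed by 0.04 on the log2 scale after 1 h at 40 °C (95% interval -0.06 to 0.13, adjusted p = 0.759) and by -0.01 after 6 h (-0.12 to 0.1, adjusted p = 0.886). Neither interval reaches beyond 0.13 in either direction. At 42.5 °C the log2 difference from 37 °C was -0.97 with an SE of 0.05, a fold of 0.51, and the difference from 1 h at 40 °C was -1.01 ± 0.05. These rest on 1066 to 3258 counts per library. The level is relative to the whole library, so less Pprc1 RNA per cell and fewer cells expressing it cannot be told apart.

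Ppargc1b (ENSCGRG00001017949), which encodes PGC-1β, was scarce and is therefore the least precise of the 8 genes, with 38 to 90 counts per library. It was at 5.75, 6.56 and 6.29 CPM at 37 °C, at 5.3, 5.68, 6.61 and 4.5 CPM after 1 h at 40 °C and at 6.71, 4.75, 5.6 and 5.85 CPM after 6 h. At 42.5 °C it was at 4.88, 4.44, 3.68 and 3.94 CPM, below each of the 3 controls but overlapping with the 40 °C libraries. The log2 changes at 40 °C were -0.17 ± 0.14 (SE, adjusted p = 0.62) after 1 h and -0.12 ± 0.14 (adjusted p = 0.542) after 6 h, neither of which passed. The 42.5 °C difference was -0.56 ± 0.14, that is 68.3% of the mean at 37 °C. Replicate D of the 37 °C group held 2.14 CPM of Ppargc1b, lower than any 42.5 °C library, and with all 4 controls the log2 difference at 42.5 °C was -0.31.

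Ppargc1a (ENSCGRG00001015534), which encodes PGC-1α, had 0 counts in all 16 libraries. A count of 0 allows up to 3 counts, which is 0.204 to 0.296 CPM depending on the library, so that a lower level could not have been detected. This limit covers counting error only.

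**Figure D1:**
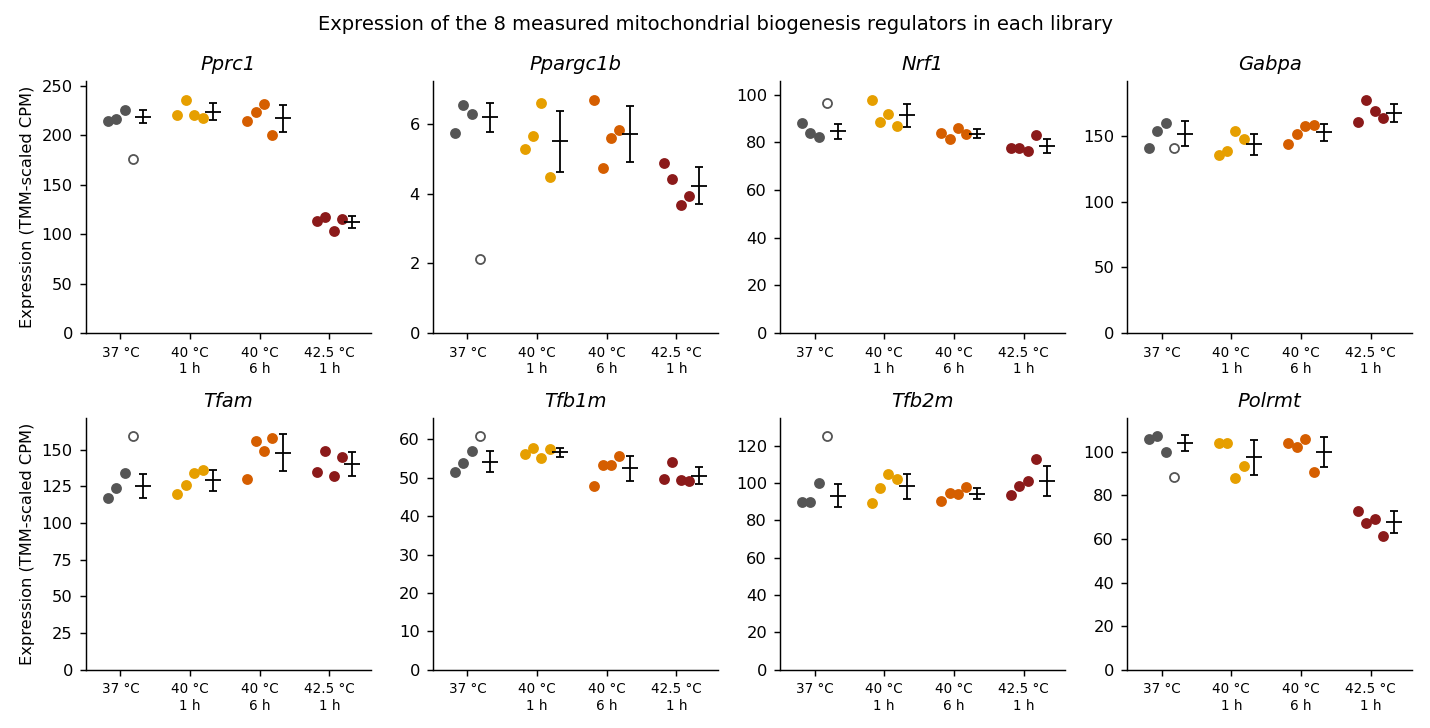
Expression (TMM-scaled CPM, linear axes from 0) of the 8 measured regulators in each library, by temperature and time. Filled points are libraries, the open point is 37 °C replicate D, and the black bar with whiskers is the mean ± SD of the filled points (n = 3 at 37 °C, n = 4 otherwise). Pprc1 and Polrmt lie lower in all 4 libraries at 42.5 °C than in any other, and Ppargc1b lies lower there than in the 3 filled controls.

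Of the DNA-binding factors, Nrf1 and Gabpa had means between 92.8% and 111% of those at 37 °C in every heated group, and at 42.5 °C Nrf1 was at the lower end and Gabpa at the upper end of that range. Nrf1 (ENSCGRG00001000193, nuclear respiratory factor 1, not to be confused with Nfe2l1) was at 88.1, 83.8 and 82.2 CPM at 37 °C and at 97.9, 88.6, 91.7 and 87 CPM after 1 h at 40 °C. It was at 83.8, 81.5, 86.1 and 83.5 CPM after 6 h and at 77.5, 77.8, 76.2 and 83 CPM at 42.5 °C. The 1 h group was thus the highest and the 42.5 °C group the lowest, and groups next to each other in the order of their means overlapped. The 1 h group at 40 °C lay above the 6 h group and the 42.5 °C group in all libraries.

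After 1 h at 40 °C the log2 change of Nrf1 was 0.11 ± 0.05 (SE), with an unadjusted p of 0.0492 and an adjusted p of 0.335. With the replicate letter as a block, which uses the 3 lettered pairs, it was 0.13 with an adjusted p of 0.0483, which passes 0.05 while remaining far from a 1.5-fold change. Over the alternatives the adjusted p ran from 0.0483 to 0.929. After 6 h the change was -0.02 ± 0.05 (adjusted p = 0.785), and at 42.5 °C the difference from 37 °C was -0.11 ± 0.05.

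Gabpa (ENSCGRG00001024235) was at 141, 154 and 160 CPM at 37 °C and at 161, 178, 169 and 164 CPM at 42.5 °C, so that every 42.5 °C library was above every control, by a log2 difference of 0.14 ± 0.05 (SE). At 40 °C it ranged from 136 to 154 CPM after 1 h and from 144 to 159 CPM after 6 h. The log2 changes there were -0.07 ± 0.05 (adjusted p = 0.585) and 0.01 ± 0.05 (adjusted p = 0.889). In the RefSeq annotation of another assembly, genes sharing a chromosome label and overlapping in position were looked up. These were Atp5pf for Gabpa, Kcnma1 for Nrf1, Tiam2 and Cldn20 for Tfb1m and Mir378 for Ppargc1b. For Ppargc1a they were Skil, Cldn11 and a gene named by a locus number only. Scaffolds within a label were not compared, so these pairs are not established as true neighbours. The sources used here do not say whether reads were counted by strand, and reads of overlapping genes may not have been told apart. No such overlap was listed for Pprc1, Tfam, Tfb2m or Polrmt.

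The mitochondrial transcription machinery did not move as a unit. Polrmt was lower at 42.5 °C, Tfam was higher after 6 h at 40 °C, and the factors Tfb1m and Tfb2m overlapped the controls in every heated group. Polrmt (ENSCGRG00001021311), the single RNA polymerase of mitochondria, was at 106, 107 and 100 CPM at 37 °C. After 1 h at 40 °C it was at 104, 104, 88.1 and 93.5 CPM, and after 6 h at 104, 102, 106 and 90.5 CPM. At 42.5 °C its 4 libraries held 73, 67.5, 69.3 and 61.3 CPM. All 4 lie below every library of the other groups, 37 °C replicate D at 88.3 CPM included.

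The mean of Polrmt at 42.5 °C was 67.8 ± 4.88 CPM, 64.9% of that at 37 °C (104 ± 3.71 CPM), and the log2 difference was -0.63 ± 0.06 (SE, fold 0.644). It stood close to the 1.5-fold limit of 0.58 on the log2 scale and was within it without 42.5 °C replicate D (-0.58) or with all 4 controls (-0.57). Against 1 h at 40 °C the log2 difference was -0.53 ± 0.06. At 40 °C the changes against 37 °C were -0.1 ± 0.06 (adjusted p = 0.454) after 1 h and -0.06 ± 0.06 (adjusted p = 0.446) after 6 h.

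Tfam (ENSCGRG00001019324), which coats mtDNA and bends it at the promoters, was the only one of the 8 genes to pass adjusted p under 0.05 in a comparison with 37 °C at 40 °C without the block. It was at 117, 124 and 134 CPM at 37 °C, at 120, 126, 134 and 136 CPM after 1 h and at 130, 156, 149 and 158 CPM after 6 h. In the 6 h group 3 of 4 libraries exceeded every control, and replicate A did not. Its log2 change after 6 h was 0.24 ± 0.07 (SE, 95% interval 0.11 to 0.38, adjusted p = 0.00916), a rise of 18.5% that does not reach 1.5-fold.

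This rise of Tfam depended on the controls, since it had an adjusted p of 0.0579 without 37 °C replicate A and of 0.365 with replicate D (159 CPM) among the controls. After 1 h the change was 0.05 ± 0.05 (adjusted p = 0.748). Between the times at 40 °C, which share no library, the 6 h group was higher than the 1 h group by 0.2 ± 0.06 (adjusted p = 0.0275). At 42.5 °C Tfam was at 135, 149, 132 and 145 CPM, overlapping the controls, with a log2 difference of 0.16 ± 0.05 from 37 °C.

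The related factors Tfb1m (ENSCGRG00001022866) and Tfb2m (ENSCGRG00001000953) showed no change at 40 °C against 37 °C that passed the test. Tfb1m had group means of 54.2 ± 2.72, 56.7 ± 1.2, 52.5 ± 3.32 and 50.6 ± 2.28 CPM at 37 °C, 40 °C for 1 h, 40 °C for 6 h and 42.5 °C. For Tfb2m the means were 93.3 ± 6.08, 98.4 ± 6.69, 94.3 ± 3.05 and 101 ± 8.11 CPM in the same order. Their log2 changes at 40 °C ran from -0.04 to 0.08, with adjusted p-values between 0.589 and 0.882, and at 42.5 °C the differences were -0.11 ± 0.06 for Tfb1m and 0.12 ± 0.06 for Tfb2m. The separate 37 °C replicate D held more of both than any of the other controls, at 60.8 and 125 CPM.

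**Figure D2:**
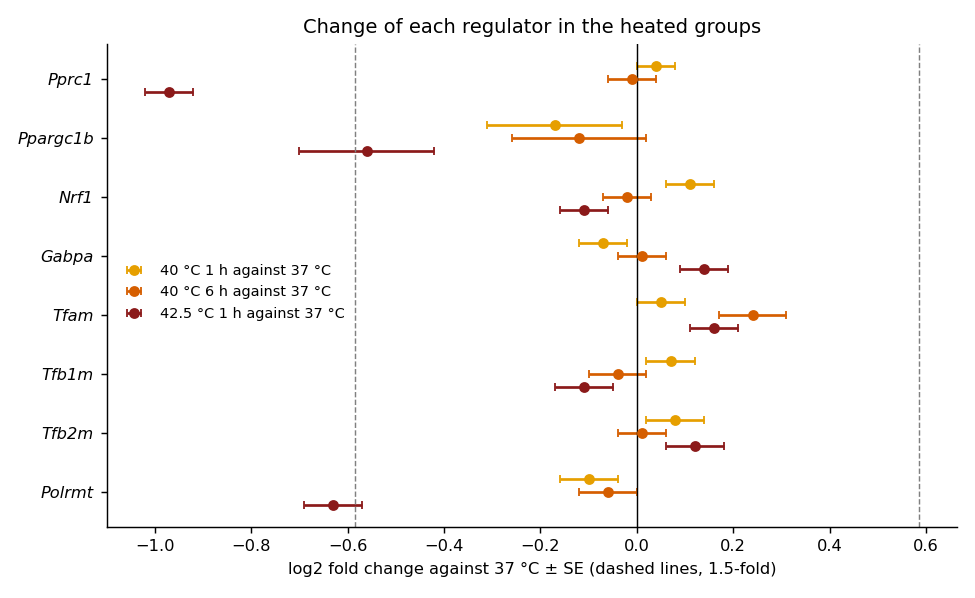
Log2 fold change against 37 °C (edgeR estimate ± SE) of each regulator after 1 h at 40 °C, 6 h at 40 °C and 1 h at 42.5 °C, with dashed lines at a 1.5-fold change. The 3 comparisons share the same 3 control libraries. Pprc1 (-0.97) and Polrmt (-0.63) lie beyond the lower line at 42.5 °C, Ppargc1b (-0.56) lies next to it, and every value at 40 °C lies between -0.17 and 0.24.

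Differentially expressed genes (DEGs) had to pass 0.05 in adjusted p and differ by 1.5-fold or more, the limits that the study set. After 1 h at 40 °C 0 of the 8 regulators was a DEG by edgeR and 0 by DESeq2, with 1 at an unadjusted p under 0.05 (Nrf1), and 0.334% of all 10494 genes tested were DEGs. The share of all genes at an unadjusted p under 0.05 was not computed, so nothing is read from such counts, here or below. At adjusted p alone 0 of 8 passed, beside 1.64% of all genes, and 1 of 8 (Nrf1) did under the replicate block. After 6 h 0 of 8 was a DEG by either tool, beside 3.11% of all genes, and 1 of 8 (Tfam) passed adjusted p alone, beside 29.4% of all genes.

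At 42.5 °C, 2 of 8 (Pprc1 and Polrmt) met both limits, both lower, where 7.51% of 10470 genes did in either direction and 4.68% in the lower direction. Adjusted p alone was met by 5 of 8, with 43.1% of all genes. All 4 heated libraries lay below all 3 controls for Pprc1, Ppargc1b and Polrmt, as they did for 22.8% of all genes, and above them for Gabpa, as for 23.1% of all genes. Nothing is read from these counts, because the list was partly chosen on this contrast. Among all genes ranked from the largest fall, Pprc1 stood at place 141, Polrmt at 417 and Ppargc1b at 575 of 10470. The median log2 difference over the 8 regulators was 0.04, -0.02 and -0.11 in the 3 comparisons with 37 °C, and that over all genes was 0 in each.

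The design also holds 2 times at 40 °C and 2 temperatures at 1 h. Between 6 h and 1 h at 40 °C, 0 of 8 regulators was a DEG by edgeR or by DESeq2, with 2 at an unadjusted p under 0.05, and 1.28% of all genes were. At adjusted p alone Tfam was the 1 that passed, beside 18.5% of all genes, and it no longer did without 40 °C 1 h replicate A or B or without 40 °C 6 h replicate B, C or D, where the adjusted p was between 0.0677 and 0.0873. All 4 Nrf1 values were lower after 6 h than after 1 h, by -0.13 ± 0.05 (SE, adjusted p = 0.0833), which did not pass, although it did in 1 fit over all 4 groups (adjusted p = 0.0496). Between 42.5 °C and 40 °C at 1 h, only Pprc1 of the 8 met both limits, beside 5.27% of all genes, which is again a description.

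The genes around these regulators were taken as lists of partner and upstream genes, of mtDNA expression, of mtDNA replication and of protein import, written from general knowledge. These lists and that of the mtDNA-encoded mRNAs were chosen with earlier results of these data known. Their counts and p-values below are to be read with that limit. Of their 110 names 95 were found and 91 passed the filter. After 1 h at 40 °C 0 of 91 was a DEG by edgeR or DESeq2, with 14 at an unadjusted p under 0.05. After 6 h again 0 of 91 was a DEG by either tool, with 40 at an unadjusted p under 0.05. These unadjusted counts have no share over all genes beside them and are not read as a result about the lists. Adjusted p alone was passed by 28, 18 higher and 10 lower, a share near the 29.4% of all genes. At 42.5 °C 4 of 91 were DEGs, where 7.51% of all genes were. Of these, 1 was higher (2.83% of all genes) and 3 were lower (4.68% of all genes). Adjusted p alone was passed by 43, 20 higher and 23 lower, a share near the 43.1% of all genes. The median log2 change over the 91 was 0.02, 0 and 0.02 in the 3 comparisons. By list, adjusted p alone at 6 h was passed by 10 of 25 partner and upstream genes (8 higher). It was passed by 9 of 29 genes of mtDNA expression (7 higher), 4 of 16 of replication (2 higher) and 5 of 21 of import (1 higher). At 42.5 °C these counts, of the same numbers tested, were 9 (5 higher), 18 (7 higher), 8 (3 higher) and 8 (5 higher). The share of all genes passing adjusted p alone in each direction was not computed, so nothing is read from the directions.

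Each of the 4 lists held 1 of the 4 DEGs at 42.5 °C. In the partner and upstream list (25 tested) Ppard, a nuclear receptor that binds PGC-1 coactivators, fell from 61.5 ± 7.45 to 40.4 ± 4.43 CPM (log2 -0.62 ± 0.09, adjusted p = 3.73e-05). The related Pparg of that list was higher, at 169 ± 5.59 CPM beside 129 ± 2.89 CPM at 37 °C, within 1.5-fold. Ppara was at 107% of its mean at 37 °C. In the list of mtDNA expression (29 tested) Mrm3, which methylates mitochondrial ribosomal RNA, fell from 29.9 ± 1.72 to 17.6 ± 1.31 CPM (-0.77 ± 0.08, adjusted p = 2.41e-06). Top1mt of the replication list (16 tested), the mitochondrial topoisomerase, fell from 26.9 ± 0.563 to 18 ± 0.666 CPM (-0.59 ± 0.07, adjusted p = 1.36e-05), at the edge of the 1.5-fold limit and within it in 6 of 14 alternatives.

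Timm9 of the import list (21 tested), a small chaperone of the intermembrane space, was the 1 of the 4 DEGs that rose, from 7.9 ± 1.23 to 12.5 ± 1.31 CPM (0.66 ± 0.13, adjusted p = 0.000634). Ppard and Timm9 did not pass with all 4 controls (adjusted p = 0.0712 and 0.223), and both were within 1.5-fold without 37 °C replicate A (-0.52 and 0.56). Ppard was also within it without 42.5 °C replicate D (-0.56). By label and position in the RefSeq annotation, Vwa8 was listed for Ppard and Tomm20l for Timm9, again without a comparison of scaffolds.

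Some partners of the listed genes, the unmeasured Ppargc1a and Lrpprc included, are given for their role, chosen after their values were seen. Esrra, the oestrogen-related receptor through which PGC-1 coactivators act, fell after 6 h at 40 °C from 45.8 ± 6.06 to 31.3 ± 2.98 CPM (log2 -0.55 ± 0.09, adjusted p = 0.000234), within 1.5-fold. The log2 change of Pprc1 in that comparison was -0.01. At 42.5 °C the log2 change of Esrra was -0.31 ± 0.1 (adjusted p = 0.0176), which did not pass without 37 °C replicate A (-0.19, adjusted p = 0.144), without 42.5 °C replicate B (adjusted p = 0.0529) or with all 4 controls (adjusted p = 0.118). Yy1, a zinc finger factor that works with PGC-1α, rose after 6 h from 45.2 ± 0.869 to 60.7 ± 2.14 CPM (0.42 ± 0.06, adjusted p = 4.53e-05). Between 6 h and 1 h at 40 °C Esrra fell by 0.42 (adjusted p = 0.00114) and Yy1 rose by 0.23 (adjusted p = 0.00609).

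Gabpb1, the partner subunit of Gabpa, had log2 changes between -0.02 and 0.02 against 37 °C, with adjusted p-values between 0.81 and 0.979. Tefm, the elongation factor of Polrmt, changed by 0.02, 0.23 and 0.09, with adjusted p-values of 0.948, 0.081 and 0.443. Slirp, the binding partner of LRPPRC, rose at 42.5 °C from 55.3 ± 6.49 to 67.4 ± 3.66 CPM (0.28 ± 0.07, adjusted p = 0.00499), which did not pass with all 4 controls (adjusted p = 0.731).

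**Figure D3:**
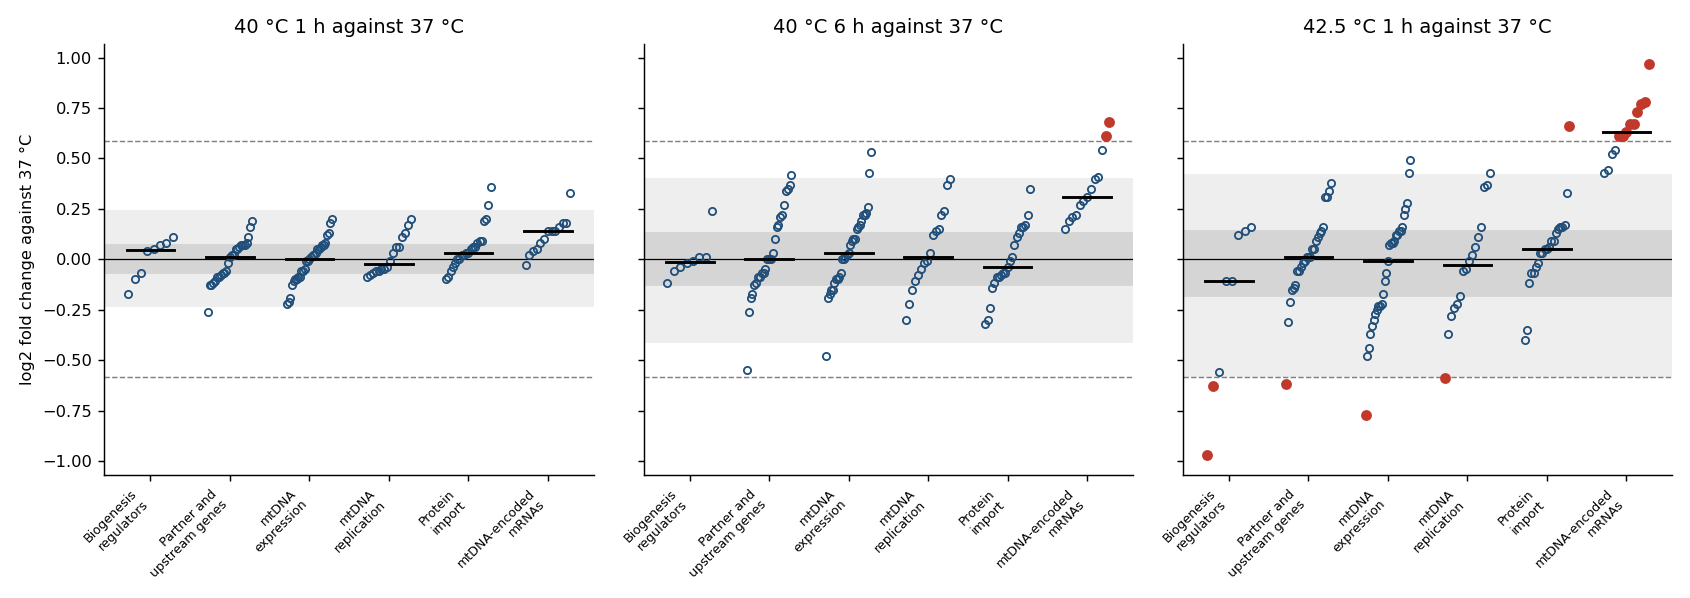
Log2 fold change against 37 °C of each tested gene of the 8 regulators, of the 4 surrounding lists and of the 13 mtDNA-encoded mRNAs, in the 3 heated groups. Filled red points are DEGs, black bars are list medians, dashed lines mark 1.5-fold, and the dark and light bands hold the middle 50% and 90% of all genes tested. The 4 surrounding lists have medians between -0.04 and 0.05, and the mtDNA-encoded mRNAs have a median of 0.14, 0.31 and 0.63.

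The transcripts that the machinery makes, the 13 mRNAs encoded by mtDNA, were higher at 42.5 °C, where Polrmt was lower. After 1 h at 40 °C 0 of 13 was a DEG by edgeR or DESeq2, with 1 at an unadjusted p under 0.05 and a median log2 change of 0.14. After 6 h all 13 had a positive change, 9 passed adjusted p alone (29.4% of all genes did) and 2 were DEGs, where 1.45% of all genes were DEGs in that direction. These were CYTB (0.68 ± 0.1, adjusted p = 8.15e-05) and ND4 (0.61 ± 0.11, adjusted p = 0.000451), and the lowest was ND6 (0.15), which was at 0.32 without 37 °C replicate A, at 0.05 without replicate B and at 0.01 with all 4 controls. With all 4 controls neither of CYTB and ND4 passed, at adjusted p = 0.0627 and 0.0738. ND4 also lost its 1.5-fold change without 37 °C replicate B or C or 40 °C 6 h replicate B, at 0.51 to 0.57.

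At 42.5 °C all 13 passed adjusted p alone, as 43.1% of all genes did, and 9 were DEGs, all higher, as were 2.83% of all genes. The 13 are encoded by the same mtDNA and were not shown to vary independently. Their counts, here and after 6 h, are therefore not 13 separate results. ATP8 was the highest (log2 0.97 ± 0.12, adjusted p = 1.56e-05) and COX2 the lowest (0.43 ± 0.08, adjusted p = 0.000331). Without 37 °C replicate B 5 were DEGs, and with all 4 controls 4 were, with COX2 then at an adjusted p of 0.293. ND4 and ND4L overlap in mtDNA, as do ATP6 and ATP8, and reads of nuclear copies of mtDNA cannot be told apart in these counts.

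The summed share of the 13 mRNAs in all counts was 3.06%, 2.23% and 2.31% in 37 °C replicates A, B and C and 3.31% in replicate D. It was 3%, 2.59%, 2.39% and 3.12% after 1 h at 40 °C, 2.69%, 3.54%, 3.25% and 3.08% after 6 h and 3.71%, 3.8%, 3.72% and 3.55% at 42.5 °C. Every 42.5 °C library was above every other library. Among the controls, replicate A held 122% of their mean and replicates B and C held 87.3% and 91.2%, in TMM-scaled CPM. In the same units the 42.5 °C libraries held 150% to 159% of the control mean for these mRNAs, beside 47.3% to 53.3% for Pprc1, 58.7% to 69.8% for Polrmt and 106% to 120% for Tfam. Counts give the amount of RNA, so that synthesis and decay of the mtDNA-encoded mRNAs cannot be told apart.

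**Figure D4:**
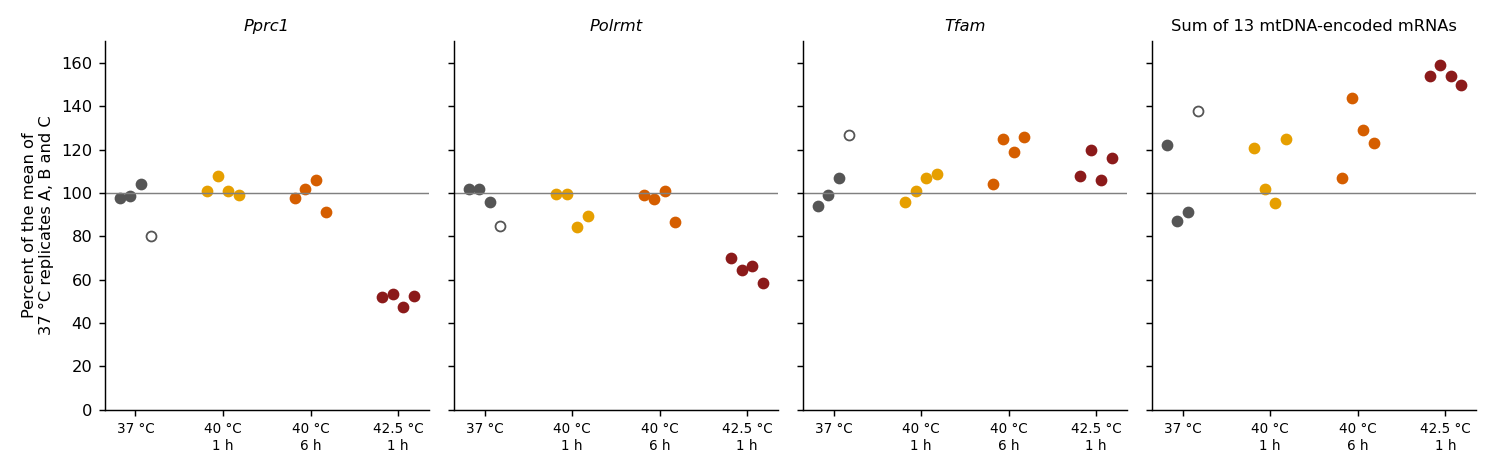
Pprc1, Polrmt, Tfam and the sum of the 13 mtDNA-encoded mRNAs in each library, as a percent of the mean of 37 °C replicates A, B and C (TMM-scaled CPM, linear axes from 0). Filled points are libraries, the open point is 37 °C replicate D, and the grey line is 100%. At 42.5 °C Pprc1 lies at 47.3% to 53.3%, Polrmt at 58.7% to 69.8% and the mtDNA-encoded mRNAs at 150% to 159%.

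The genes whose pattern over the 15 libraries was most like that of Pprc1 were taken by the root mean square difference of the centred log2 CPM, as a description. The 5 nearest of 10626 were Zbtb48 (0.0741), Taok2 (0.0872), Ankzf1 (0.0923), Klhl25 (0.0991) and Tor2a (0.103), none of them on any of the lists. Their log2 differences at 42.5 °C were -0.89, -1.06, -1.16, -1.22 and -0.92. Of the regulators, Polrmt was the nearest to Pprc1 at rank 180 (0.207), and Ppargc1b came at rank 807. Gabpa was the farthest, at rank 8095 (0.514).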

How the data were processed

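RNA of CHO cells from 16 libraries was sequenced, 4 for each of 4 groups. The authors used CLC Genomics Workbench for trimming, for mapping to the CHOK1GS_HDv1 genome and for counting per gene, and they deposited raw counts. Per the labels bcl2fastq was also used. The annotation release and the strandedness are not given in the sources used here. The members and lists were chosen with earlier results of these data known. The 37 °C replicate D was left out of the main fits. Each pair of groups was fitted with edgeR 4.0.16 in R 4.3.3 (filterByExpr, TMM, glmQLFit, glmQLFTest), and DEGs passed 0.05 after Benjamini-Hochberg adjustment and 1.5-fold. SE and 95% intervals come from that fit. CPM was scaled by TMM, and 0.5 CPM was added before log2 for the likeness to Pprc1. Total counts per library were 10504192 to 14668365.

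Named genes were all members, per list and comparison with 37 °C at most 4 DEGs with the largest change, the highest and lowest mtDNA-encoded mRNAs, and the 5 genes most like Pprc1. Esrra, Yy1, Gabpb1, Tefm and Slirp were added outside this rule for their role, after their values were seen, and the alternatives for named list genes were added then too. Pparg and Ppara were added beside Ppard, also after their values were seen and without alternatives. Alternatives were DESeq2 1.42.0 (Wald test, size factors), no filter, at least 10 counts in every library, a block for the replicate letter, a single fit over the groups, all 4 controls, no limit on the fold and each library left out. Same-letter libraries of 40 °C 1 h and 37 °C deviated together, with r from 0.1 to 0.19 in the 3 pairs after group means were subtracted, so the blocked value is given beside a result there where it changes the call. The main fits had no block. In the other comparisons not every pair exceeded 0.1. Overlaps between genes were read by symbol, chromosome label and position from the RefSeq annotation of CriGri-PICRH-1.0, another build, without comparing scaffolds.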

Additional observations from a re-analysis of the deposited data

Results flagged for a closer look

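For Tfb1m, 42.5 °C replicate B was the highest of its group at 54 CPM, with the nearest of the other 3 at 49.8 CPM, and its gap was 0.857 of the whole range of the group. It was the 1 sample to stand apart among 36 groups looked at, where chance gives about 1 in 20. Tfam differed between the times at 40 °C, with a log2 change that was higher by 0.2 after 6 h than after 1 h (adjusted p = 0.0275 by edgeR). Part of the libraries carried this call, as given with the values above.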

How the results depend on the processing

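Counts are numbers of DEGs unless stated. With adjusted p alone, the regulators called were 1 (Tfam) at 40 °C for 6 h, 5 at 42.5 °C, 1 between 6 h and 1 h and 5 between 42.5 °C and 40 °C, the genes of the 4 lists 28 after 6 h and 43 at 42.5 °C, and the mtDNA-encoded mRNAs 9 at 6 h. The shares of all genes at adjusted p alone were 29.4%, 43.1%, 18.5% and 36.1% in the order given for the regulators. With all 4 controls, at 42.5 °C, 1 regulator, 2 list genes and 4 mtDNA-encoded mRNAs were called, and 1 of the latter after 6 h. Of all genes, 639 of 10408 were then DEGs at 42.5 °C and 218 of 10448 after 6 h. Leaving out each library in turn gave 1 to 3 regulators, 2 to 4 list genes and 5 to 12 mtDNA-encoded mRNAs at 42.5 °C. Between 701 of 10425 and 854 of 10470 of all genes were DEGs in those fits. All regulator counts in comparisons with 42.5 °C remain a description, because the list was partly chosen on the fall of Pprc1 there. After 6 h, leaving out each library gave 0 to 1 list genes, with 1 without 37 °C replicate B or C or 40 °C 6 h replicate C, and 1 to 3 mtDNA-encoded mRNAs. Between 248 of 10459 and 388 of 10467 of all genes were DEGs there. At 42.5 °C the 1 regulator was found without 42.5 °C replicate D, and the 3 were found without 37 °C replicate A or 42.5 °C replicate A, where Ppargc1b was at -0.61 and -0.63. The 2 list genes were found without 37 °C replicate A, and the 5 mtDNA-encoded mRNAs without 37 °C replicate B. The remaining 145 counts stayed within 1.5 times. The log2 difference of Pprc1 at 42.5 °C stayed between -0.99 and -0.89.

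With the replicate block, 10 mtDNA-encoded mRNAs were called at 42.5 °C and 3 after 6 h, Ppard was within 1.5-fold at 42.5 °C (-0.56), and Nrf1 passed an adjusted p of 0.05 after 1 h at 40 °C. The main fits had no block.

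Changes of sign touched only log2 values at 40 °C that were not called. With all 4 controls they were 0.07 for Ppargc1b, -0.05 for Tfam and -0.04 for Tfb2m after 1 h, and 0.06 for Pprc1, 0.12 for Ppargc1b and -0.1 for Tfb2m after 6 h. With the block, after 6 h, they were 0.02 for Pprc1, -0.01 for Gabpa and -0.01 for Tfb2m. With a library left out, after 6 h, they were 0.01 and 0.03 for Pprc1, 0.01 for Nrf1, -0.03 for Gabpa and -0.01 for Tfb2m. The cause was not tested. The fewest counts lay behind Ppargc1b (38 to 90 per library) and Ppargc1a (0).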
